A study of Mus musculus with 16 samples.

Results

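Toll-like receptors bind conserved microbial molecules, and a small set of partner proteins is needed to fold them, carry them or bind alongside them. Here 10 such genes were chosen by symbol among the 27928 genes of a table of RNA levels in sorted splenic B cells of the mouse. They comprise the 7 receptors Tlr1, Tlr2, Tlr3, Tlr4, Tlr6, Tlr7 and Tlr9, the receptor-like protein Cd180 (RP105), its partner Ly86 (MD-1), and Unc93b1, the chaperone of the endosomal receptors. The study asked how loss of TFII-I, a transcription factor encoded by Gtf2i, changes the follicular (FO) subset and the marginal zone (MZ) subset of B cells. FO B cells recirculate through lymphoid follicles, while MZ B cells sit beside the blood sinuses of the spleen and respond early to blood-borne microbes.

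All mice were untreated young adults on the C57BL/6 strain. The groups were FO and MZ B cells of WT mice and of mice with floxed Gtf2i alleles and a Cre recombinase (conditional knockout, cKO), with 2 RNA libraries in each of the 4 groups. The methods describe the WT mice as plain BL6, so deletion of Gtf2i and presence of Cre cannot be told apart. B cells were enriched by negative selection and then sorted as CD21lo CD23hi (FO) or CD21hi CD23lo (MZ). The labels do not say whether the libraries of a group came from separate mice or pools, so the p-values measure the spread between libraries, which may be technical. Because these are bulk samples, fewer cells of a type and less RNA per cell cannot be told apart.

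Each library held between 21546552 and 25083552 reads on genes. Gtf2i itself was at 2039.8 and 1992 (WT) against 1523 and 1531 (cKO) normalized counts in FO, and at 2864 and 2471 (WT) against 1782 and 1889 (cKO) in MZ; the deleted part of the gene is not counted apart from the rest. The 6 B cell markers were present throughout, summing to 228963 to 266033 in WT and 190383 to 220767 in cKO libraries, with no overlap. The sorts matched their labels. The 6 MZ markers summed to 29666 to 32022 in FO and 124969.7 to 144161 in MZ libraries. The 4 FO markers summed to 97174 to 113310.4 in FO and 28234 to 32796 in MZ libraries. Xist, the RNA made from the inactive X chromosome of females, was at 25929.5 to 47002 in the WT libraries, while the Y-linked gene Ddx3y did not exceed 6.34 there. In the cKO libraries Ddx3y was at 2682 to 5514, and Xist was at most 89.7 except in cKO FO replicate 1, where it was at 14748, so genotype and sex-linked transcripts cannot be told apart. Library cKO MZ replicate 1 also stood apart, with 7 erythroid markers summing to 13364 (33.9 to 1025 in the other libraries) and 12 granulocyte markers summing to 1951 (47.0 to 117 in the other libraries).

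Receptors of this family fall into a surface group and an endosomal group. Tlr1 and Tlr6 each pair with Tlr2 at the cell surface to recognize bacterial lipoproteins, and Tlr4 recognizes lipopolysaccharide together with the co-receptor Ly96 (MD-2). Cd180 resembles Tlr4 but lacks a signaling tail, is held at the surface by Ly86 and modulates lipopolysaccharide responses of B cells. Tlr3 recognizes double-stranded RNA, Tlr7 single-stranded RNA and Tlr9 unmethylated CpG DNA, all in endosomes, which they reach bound to Unc93b1. Almost all of these receptors signal through the adaptor Myd88, whereas Tlr3 uses Ticam1 (TRIF). MZ B cells are known for strong responses to several of these ligands.

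Of the 10 genes, 7 had a start site in the RefSeq promoter windows used here (GRCm38.p6), 3 of them with an alternative start, and Tlr4, Tlr7 and Unc93b1 are named only. The 250 bases before the start site are shown 5′ to 3′ on the strand of the gene for Tlr3, Cd180 and Ly86, which had higher RNA levels in MZ B cells, and for Tlr9, an endosomal receptor that did not pass the test.
Tlr3 (chr8:45410381-45410630, minus strand): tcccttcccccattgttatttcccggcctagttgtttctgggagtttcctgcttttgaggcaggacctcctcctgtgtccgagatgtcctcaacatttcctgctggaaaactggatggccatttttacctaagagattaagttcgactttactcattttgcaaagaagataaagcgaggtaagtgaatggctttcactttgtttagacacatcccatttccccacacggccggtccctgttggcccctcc
Cd180 (chr13:102693297-102693546, plus strand): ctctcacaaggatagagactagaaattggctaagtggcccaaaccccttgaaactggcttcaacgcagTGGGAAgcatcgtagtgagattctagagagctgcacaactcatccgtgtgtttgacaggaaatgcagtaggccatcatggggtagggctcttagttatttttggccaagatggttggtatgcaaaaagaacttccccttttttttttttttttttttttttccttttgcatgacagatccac
Ly86 (chr13:37345095-37345344, plus strand): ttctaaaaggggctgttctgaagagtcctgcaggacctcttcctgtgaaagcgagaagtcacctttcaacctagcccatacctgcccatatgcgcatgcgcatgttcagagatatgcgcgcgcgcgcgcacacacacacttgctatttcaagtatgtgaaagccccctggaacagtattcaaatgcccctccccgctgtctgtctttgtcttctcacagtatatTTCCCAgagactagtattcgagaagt
Tlr9 (chr9:106222348-106222597, plus strand): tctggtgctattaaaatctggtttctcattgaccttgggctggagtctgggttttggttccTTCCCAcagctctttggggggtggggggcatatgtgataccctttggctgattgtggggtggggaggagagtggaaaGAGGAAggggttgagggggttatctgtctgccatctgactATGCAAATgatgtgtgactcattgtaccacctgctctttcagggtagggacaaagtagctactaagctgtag
Capitals mark matches, on either strand, to motifs named after the factors that bind them. RBPJ (TGGGAA), the DNA-binding partner of Notch, was searched because Notch2 signaling is required for MZ B cells, and it was found in the windows of Cd180 (182 bases before the start), Ly86 (26 bases) and Tlr9 (189 bases). It was also found in windows of Tlr2 and Tlr6 but not in those of Tlr3 or Tlr1, and 21.59% of all 32851 windows of the same length hold it. The octamer motif ATGCAAAT, bound by Oct factors of B cells, stood 72 bases before the start of Tlr9 and is held by 1.6% of all windows. The PU-box GAGGAA was found at Tlr9 and Tlr1 (23.25% of all windows), and the IRF motif GAAANNGAA at Tlr6, in overlapping copies (7.13% of all windows). The E-box CACGTG was matched at the alternative start of Tlr1 (6.02% of all windows), the TATA box TATAAA at that of Tlr6 (12.37%), and the GC box GGGCGG at Tlr2 (32.74%). The window of Tlr3 held none of the 7 motifs searched, and no capitals appear in it. A match is a run of letters and not a binding site; TTCCCA in a window is TGGGAA on the other strand. The RefSeq starts of Tlr1, Tlr2, Tlr3, Tlr6 and Ly86 used here lie inside the genes as GENCODE draws them. So do the marked match of Ly86, the RBPJ and IRF matches of Tlr6, the E-box of Tlr1 and the GC boxes of Tlr2.

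RNA of all 10 genes was detected in every library. Levels of different genes were compared as normalized counts per kilobase of exon. On this per-length scale Unc93b1 was the most abundant in all 4 groups, at 6811 ± 264 (SD, n = 2, as for all groups) in WT FO B cells, 3.79 times the level of the next gene. It was followed by Tlr1 at 1799 ± 435, Ly86 at 1729 ± 74.0 and Cd180 at 1431 ± 165. The libraries of Tlr1 overlapped those of both Ly86 and Cd180, so the place of Tlr1 among these genes in WT FO B cells is not resolved. Tlr9 at 772 ± 257 and Tlr7 at 469 ± 210.1 per kilobase formed a middle tier, also with overlapping libraries. Tlr4 at 114 ± 53.3, Tlr2 at 87.4 ± 32.2 and Tlr6 at 62.2 ± 18.6 overlapped with their neighbours, and Tlr3 was the lowest at 25.3 ± 4.57, below both libraries of Tlr6. The splenic B cells thus carried far more RNA for Tlr1 than for its partner Tlr2, with a per-kilobase ratio of Tlr1 to Tlr2 between 17.9 and 26.1 over the 8 libraries.

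In WT MZ B cells the order by level per kilobase of exon changed at the top and at the bottom. Tlr3 moved from the last place to above Tlr4, at 249 ± 0.976, and did not overlap Tlr4 at 131 ± 43.0. Cd180 at 2863 ± 210.4 moved above Ly86 at 2482 ± 112 and Tlr1 at 2042 ± 295. The same order was found in cKO MZ B cells, where Cd180 was at 3550.2 ± 429, Ly86 at 2438 ± 59.1, Tlr1 at 2221 ± 23.5 and Tlr3 at 206 ± 20.4 per kilobase. Dividing by the longest transcript in place of all exons raised the WT FO levels of Cd180 to 2435 and of Ly86 to 2339.7 per kilobase and put both above Tlr1 at 1989.98 in that group, so the rank of Cd180 among these 3 depends on the length used. In cKO FO this length likewise put Cd180 at 2753 above Ly86 at 2337 and Tlr1 at 1886. The change of order at the top between FO and MZ was therefore not seen with the longest transcript. Tlr3 stayed last in both FO groups and above Tlr4 in both MZ groups with either length.

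**Figure D1:**
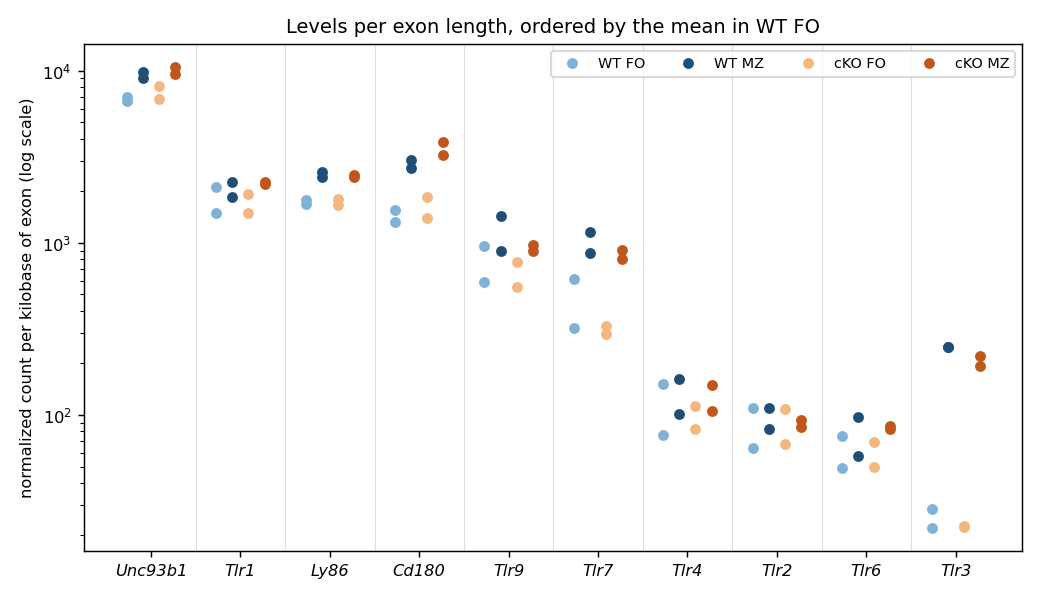
Normalized counts per kilobase of exon (log axis) of the 10 genes, ordered by their mean in WT FO B cells; each point is 1 of 2 libraries per group. Unc93b1 lies highest in every group, at 6811 per kilobase on average in WT FO, and Tlr3 is lowest in both FO groups (25.3 in WT) but not in the MZ groups (249 in WT).

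MZ B cells were then compared with FO B cells in each genotype to ask which receptors distinguish the subsets. In both genotypes MZ B cells had higher levels of Tlr3, Tlr7 and Cd180, by 9.85-fold, 2.26-fold and 2.0-fold in WT. Ly86 and Unc93b1 were higher by smaller amounts that stayed under the 1.5-fold cutoff, and Tlr1, Tlr2, Tlr4, Tlr6 and Tlr9 did not pass the test in either genotype. A call needed a limma adjusted p up to 0.05 together with a difference of 1.5-fold or more on the log2(normalized count + 1) scale, on which folds of low genes are understated. Thus 3 of the 10 genes were called higher in MZ in each genotype and 0 lower by limma, DESeq2 or edgeR, where 7.41% of all 14761 genes tested were called higher and 4.62% lower in WT, and 8.18% higher and 5.54% lower in cKO. At an unadjusted p under 0.05, 5 of the 10 differed in each genotype, beside 30.3% of all genes tested in WT and 33.4% in cKO. Without the fold cutoff 5 of the 10 passed in each genotype, beside 16.9% of all genes tested in WT and 19.6% in cKO. All 10 had log2 differences above 0 in both genotypes, with a median of 0.50 in each, against medians near 0 over all genes tested (-0.0048 in WT and -0.0047 in cKO). For 5 of the 10 genes all 4 MZ libraries lay above all 4 FO libraries, as they did for 18.6% of all genes tested.

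**Figure D2:**
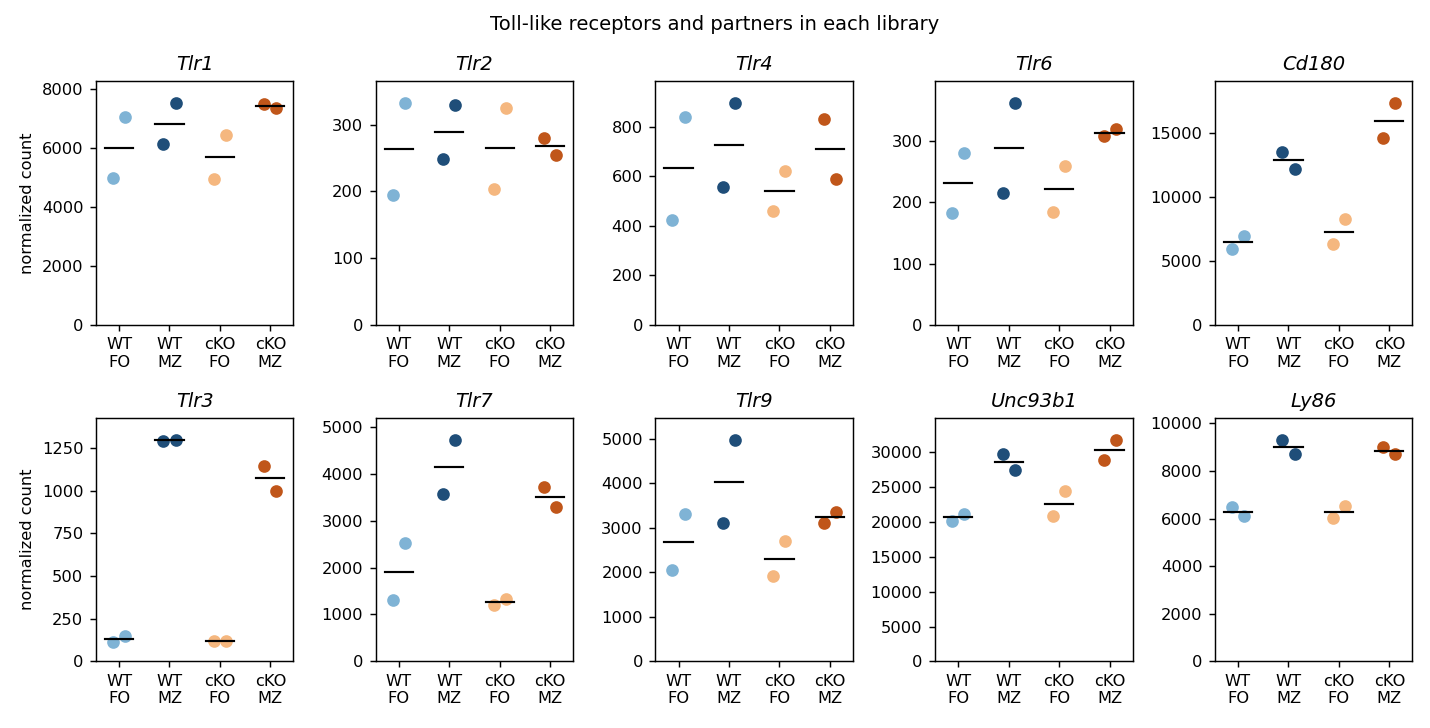
Normalized counts of each gene in each library, with a separate axis from 0 for each gene; points are the 2 libraries of a group (replicate 1 left, replicate 2 right) and bars their mean. Tlr3, Tlr7, Cd180, Ly86 and Unc93b1 had all MZ libraries above all FO libraries, with the widest gap, relative to the level, for Tlr3 (highest FO library 148, lowest MZ library 997).

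Tlr3 (ENSMUSG00000031639.12, chromosome 8 from 45395665 to 45411080, GRCm38), the endosomal receptor for double-stranded RNA, had 115 and 148 normalized counts in FO and 1291 and 1298 in MZ B cells of WT mice. In cKO mice it had 118 and 117 in FO and 1147 and 997 in MZ B cells. The groups of a subset lay close together and the subsets were far apart, with no overlap. Its log2 difference between MZ and FO was 3.30 in WT (95% confidence interval 2.94 to 3.66, limma adjusted p = 3.18e-05) and 3.18 in cKO mice (2.82 to 3.54, limma adjusted p = 3.86e-05). Without cKO MZ replicate 1 the cKO value was 3.08, and without cKO FO replicate 1 it was 3.18. An exon of Tlr3 overlaps Gm45542 on the opposite strand, which was not analysed here, and the strand setting of the counting is not given in the sources used here.

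Tlr7 (ENSMUSG00000044583.13, chromosome X from 167304929 to 167330558), the endosomal receptor for single-stranded RNA, had 1308 and 2521 normalized counts in FO and 3565 and 4719 in MZ B cells of WT mice. In cKO it had 1197 and 1338 in FO and 3719.7 and 3285 in MZ B cells. Every MZ library was above every FO library, while the WT FO libraries differed from each other by more than WT FO replicate 2 differed from the lower WT MZ library. The log2 difference was 1.17 in WT (0.53 to 1.82, limma adjusted p = 0.0266) and 1.47 in cKO mice (0.82 to 2.11, limma adjusted p = 0.00998). The WT call was lost without WT FO replicate 1 (0.70, limma adjusted p = 0.0591), without WT MZ replicate 2 (0.97, limma adjusted p = 0.111), without any 1 of the 4 cKO libraries, which enter through the shared spread (1.17, limma adjusted p between 0.0518 and 0.0529), and in a fit of the 4 WT libraries alone (limma adjusted p = 0.114). The cKO call was lost without cKO FO replicate 1 (1.39, limma adjusted p = 0.0742) or without cKO MZ replicate 1 (1.38, limma adjusted p = 0.0794).

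Tlr9 (ENSMUSG00000045322.10, chromosome 9 from 106222598 to 106226883), the endosomal receptor for CpG DNA, had 2054 and 3317 normalized counts in FO and 3107 and 4977 in MZ B cells of WT mice, and 1925 and 2694 in FO and 3109 and 3367 in MZ B cells of cKO mice. The WT subsets overlapped, while both cKO MZ libraries were above both cKO FO libraries. Its log2 difference of 0.59 in WT (-0.08 to 1.26, limma adjusted p = 0.215) and 0.51 in cKO mice (-0.16 to 1.17, limma adjusted p = 0.262) did not pass the test. These intervals include a 1.5-fold change. In WT, replicate 2 exceeded replicate 1 by 0.69 in FO and 0.68 in MZ B cells on the log2 scale. This fit did not pair libraries by number, and the WT result changed with the replicate number as a block, as given in the last section.

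Unc93b1 (ENSMUSG00000036908.17, chromosome 19 from 3935186 to 3949340), which carries Tlr3, Tlr7 and Tlr9 to endosomes, had 20078 and 21208 normalized counts in FO and 29785 and 27475 in MZ B cells of WT mice, and 20781 and 24489.9 in FO and 28943 and 31763 in MZ B cells of cKO mice. The MZ libraries were all above the FO libraries. The log2 difference in WT was 0.47 (limma adjusted p = 0.0276) and 0.43 in cKO mice (limma adjusted p = 0.0357), both under 1.5-fold, and leaving out single libraries moved the limma adjusted p to between 0.0325 and 0.125 in WT and between 0.0427 and 0.202 in cKO.

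The makeup of the endosomal receptors was described by the share of each in the summed normalized counts per kilobase of Tlr3, Tlr7 and Tlr9. Tlr9 made up 59.6% to 68.9% of this sum in the 4 FO libraries and 44.1% to 50.5% in the 4 MZ libraries. Tlr7 made up 29.1% to 38.6% in FO and 40.8% to 45.0% in MZ, and Tlr3 1.78% to 2.60% in FO and 8.79% to 12.3% in MZ. None of these 3 shares overlapped between FO and MZ libraries in either genotype. The per-kilobase ratio of Tlr7 to Tlr9 was 0.60 ± 0.07 in FO and 0.89 ± 0.12 in MZ B cells of WT mice, and 0.48 ± 0.08 in FO and 0.93 ± 0.13 in MZ B cells of cKO mice. The sum itself was 933 and 1600.0 per kilobase in FO against 2014 and 2836 in MZ B cells of WT mice, and 869 and 1125 against 2025 and 1964 in cKO mice, with no overlap. Unc93b1 exceeded the sum in every library, by 3.20 to 7.89 times, with overlapping FO and MZ libraries. No test was made on shares and ratios.

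**Figure D3:**
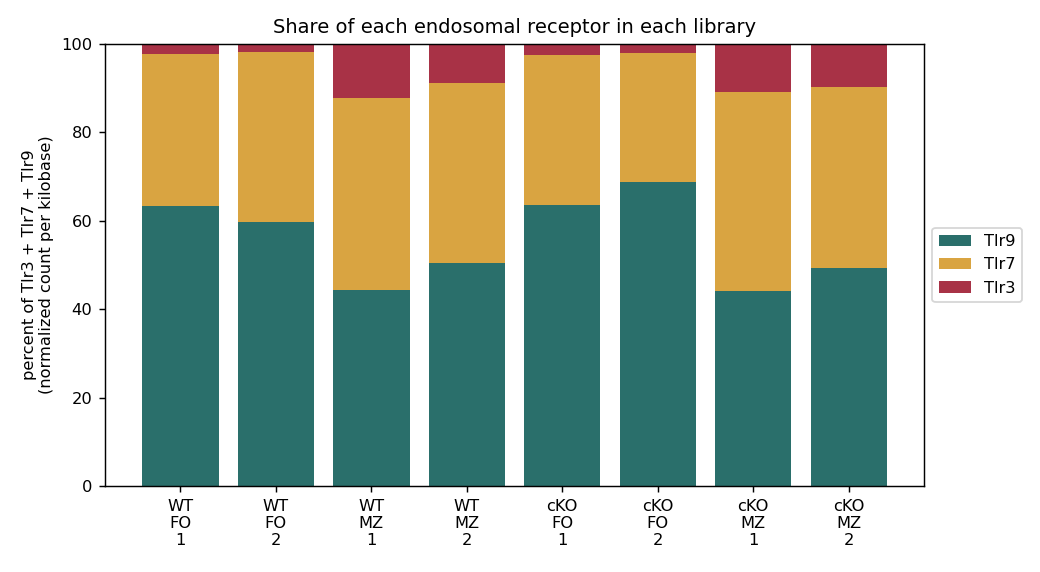
Share (percent) of Tlr9, Tlr7 and Tlr3 in their summed normalized counts per kilobase, as a stacked bar for each of the 8 libraries. The Tlr9 share is 59.6% to 68.9% in the FO bars and 44.1% to 50.5% in the MZ bars of both genotypes, and the Tlr3 share is at most 2.60% in FO and at least 8.79% in MZ.

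Cd180 (ENSMUSG00000021624.9, chromosome 13 from 102693558 to 102739629), the Tlr4-like surface protein, had 5929 and 6979 normalized counts in FO and 13582 and 12241 in MZ B cells of WT mice. In cKO it had 6293 and 8299 in FO and 14639 and 17377 in MZ B cells. The subsets did not overlap in either genotype. The log2 difference was 1.00 in WT (0.64 to 1.37, limma adjusted p = 0.00515) and 1.14 in cKO mice (0.78 to 1.51, limma adjusted p = 0.00255), with 1.27 in cKO without cKO MZ replicate 1 and 0.94 without cKO FO replicate 1. Exons of Cd180 overlap Mast4, which lies on the opposite strand and had 2169 and 2216 normalized counts in FO and 3495 and 3474 in MZ B cells of WT mice, and 2266 and 2233 in FO and 2763 and 3369.8 in MZ B cells of cKO mice; the part of Mast4 reads in the Cd180 counts was not tested.

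Ly86 (ENSMUSG00000021423.6, chromosome 13 from 37345208 to 37419036), which Cd180 needs to reach the surface, had 6469.7 and 6089.7 normalized counts in FO and 9301 and 8727 in MZ B cells of WT mice, and 6018 and 6526 in FO and 9006 and 8703 in MZ B cells of cKO mice. Its largest difference between replicates, 0.12 on the log2 scale, was the smallest among the 10 genes, and its subsets did not overlap. The log2 difference was 0.52 in WT (0.32 to 0.72, limma adjusted p = 0.00611) and 0.50 in cKO mice (0.30 to 0.70, limma adjusted p = 0.00635), under 1.5-fold in both, and 0.63 and 0.66 after quantile normalization, where it passed the cutoff. Without cKO FO replicate 1 or cKO MZ replicate 1 its limma adjusted p in cKO was 0.051 or 0.0577. Cd180 and Ly86 act as a pair, and the per-kilobase ratio of Cd180 to Ly86 was 0.74 and 0.92 in FO and 1.18 and 1.13 in MZ B cells of WT mice, and 0.84 and 1.02 in FO and 1.31 and 1.61 in MZ B cells of cKO mice. The ratio was higher in all 4 MZ libraries than in all 4 FO libraries, without a test. Whether mean Cd180 was above mean Ly86 in the FO groups depends on the length used.

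**Figure D4:**
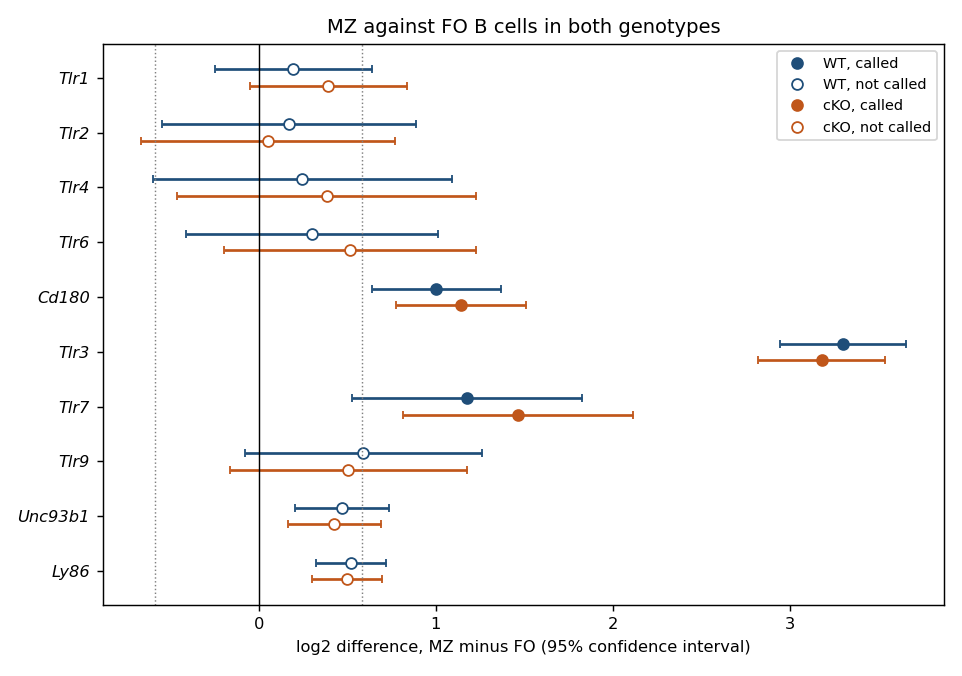
Log2 difference between MZ and FO B cells (MZ minus FO) in WT and in cKO, with 95% confidence intervals from limma; filled points passed the call and dotted lines mark 1.5-fold. Tlr3 stands at 3.30 and 3.18, Tlr7 and Cd180 at 1.00 to 1.47, and the intervals of Tlr1, Tlr2, Tlr4, Tlr6 and Tlr9 include 0.

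None of the 4 surface receptors passed the test between the subsets in either genotype. Tlr1 (ENSMUSG00000044827.10, chromosome 5 from 64924679 to 64933563) had 4991 and 7049 normalized counts in FO and 6133 and 7531 in MZ B cells of WT mice, and 4959 and 6454 in FO and 7488 and 7377 in MZ B cells of cKO mice. Its subsets overlapped in WT but not in cKO, with log2 differences of 0.20 (-0.25 to 0.64, limma adjusted p = 0.55) and 0.39 (-0.05 to 0.84, limma adjusted p = 0.195). Tlr6 (ENSMUSG00000051498.6, chromosome 5 from 64952031 to 64960097), the neighbouring and closely related gene, had 183 and 281 in FO and 215 and 362 in MZ B cells of WT mice, and 185 and 259.7 in FO and 308 and 319.7 in MZ B cells of cKO mice. The libraries of Tlr6 were ordered much like those of Tlr1, with log2 differences of 0.30 in WT mice (limma adjusted p = 0.573) and 0.52 in cKO mice (limma adjusted p = 0.282). Reads of 50 bases that fit both genes may have been split or dropped, so the levels of this pair are uncertain.

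Tlr2 (ENSMUSG00000027995.10, chromosome 3 from 83836272 to 83841767), the common partner of Tlr1 and Tlr6, had 195 and 332 normalized counts in FO and 248 and 329.7 in MZ B cells of WT mice, and 204 and 325 in FO and 280.1 and 255 in MZ B cells of cKO mice. The subsets overlapped in both genotypes, with log2 differences of 0.17 in WT (-0.55 to 0.89, limma adjusted p = 0.765) and 0.05 in cKO mice (-0.67 to 0.77, limma adjusted p = 0.925). Tlr4 (ENSMUSG00000039005.13, chromosome 4 from 66827584 to 66930284), the lipopolysaccharide receptor, had 423 and 842 in FO and 559 and 897 in MZ B cells of WT mice, and 460.2 and 623 in FO and 833 and 588 in MZ B cells of cKO mice. It also overlapped in both genotypes, with log2 differences of 0.25 in WT (-0.60 to 1.09, limma adjusted p = 0.709) and 0.39 in cKO mice (-0.46 to 1.23, limma adjusted p = 0.502). These intervals include a 1.5-fold change, so a difference of that size is not excluded. Without WT FO replicate 1 the WT differences of Tlr1, Tlr2, Tlr4 and Tlr6 turned below 0, to -0.05, -0.21, -0.25 and -0.0087, and without WT MZ replicate 2 those of Tlr2, Tlr4 and Tlr6 turned to -0.03, -0.10 and -0.08. The cKO difference of Tlr2 turned to -0.28 without cKO FO replicate 1, to -0.02 without cKO MZ replicate 1 and to -0.09 after quantile normalization. Tlr1 made up 85.9% to 88.9% of the summed level per kilobase of these 4 receptors in every library, with no separation of FO from MZ or of WT from cKO.

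The surface receptors and Tlr7 and Tlr9 varied between replicates of WT more than the partners did. In 7 of the 10 genes replicate 2 was above replicate 1 in both WT FO and WT MZ, as it was for 38.6% of all genes tested. For Tlr4 replicate 2 exceeded replicate 1 on the log2 scale by 0.99 in FO and by 0.68 in MZ B cells of WT mice and by 0.44 in FO B cells of cKO mice, while in MZ B cells of cKO mice the difference was -0.50. For Ly86 these differences were -0.09, -0.09, 0.12 and -0.05. The summed normalized count of 11 macrophage and monocyte markers, cells that also express several Toll-like receptors, was, for replicates 1 and 2, 629.7 and 1342 in FO and 596 and 2009 in MZ B cells of WT mice, with 1138 and 742 in FO and 2129 and 1269 in MZ B cells of cKO mice. Its order between replicates was that of Tlr4 in WT FO, WT MZ and cKO MZ but not in cKO FO. Of these markers 10 of 11 were tested and 0 were at 0 in all libraries, with Csf1r at 66.9 to 299 and Adgre1 at 53.0 to 216; their part in the receptor levels was not tested. The 9 dendritic cell markers summed to 141 to 422. They were higher in replicate 2 of WT FO (294 against 152) and WT MZ (422 against 204). In replicate 2 of cKO FO (141 against 153) and cKO MZ (180 against 241) they were lower, so their order also differed from that of Tlr4 in cKO FO. Their part in the receptor levels was not tested. The sums were 739.6 to 1278 for 8 T cell markers, of which Cd3e was at most 5.71, and 843 to 4079.9 for 4 plasma cell markers.

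Deletion of Gtf2i was compared with WT in each subset to ask whether TFII-I affects the RNA of these receptors. By limma, DESeq2 or edgeR, 0 of the 10 genes were called in FO, in MZ or across both subsets, and 0 of the 10 had an unadjusted limma p under 0.05, as 2.59% of all genes tested did in FO, 4.04% in MZ and 6.63% across both subsets. Calls were rare over all genes tested, at 0.0542% higher and 0.0135% lower in FO, 0.0339% higher and 0.0% lower in MZ, and 0.0948% higher and 0.0135% lower across both subsets. In MZ, where limma called 0 genes lower, 596 of all genes had an unadjusted p under 0.05, and DESeq2 called 18 lower and edgeR 0. The log2 differences between cKO and WT lay between -0.52 (Tlr7) and 0.17 (Cd180) in FO and between -0.28 (Tlr9) and 0.31 (Cd180) in MZ B cells, with medians of -0.06 and -0.02. Across both subsets the lowest was Tlr7 at -0.38 (-0.83 to 0.08, limma adjusted p = 0.8) and the highest Cd180 at 0.24 (-0.02 to 0.50, limma adjusted p = 0.763).

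The intervals set how large a change could have gone unseen. For Ly86 the interval was -0.20 to 0.20 in FO and -0.22 to 0.17 in MZ, and for Unc93b1 -0.13 to 0.39 and -0.18 to 0.35, all of which leave out a 1.5-fold change in either direction. For Tlr4 the interval ran from -1.0 to 0.69 in FO and from -0.86 to 0.83 in MZ B cells, so changes of 1.5-fold are not excluded for it at this number of libraries. Nor are they excluded in either subset for Tlr2 (-0.70 to 0.74 in FO), Tlr6 (-0.76 to 0.66), Tlr7 (-1.17 to 0.13) and Tlr9 (-0.86 to 0.47). In MZ alone they are also not excluded for Tlr3 and Cd180, whose intervals are given below. In FO B cells cKO and WT libraries overlapped for all 10 genes, where 24.0% of all genes tested did not overlap. In MZ B cells both cKO libraries of Cd180 were above both WT libraries, as for 15.8% of all genes tested, and both cKO libraries of Tlr3 were below both WT libraries, as for 18.7%. The difference of Tlr3 in MZ was -0.27 (-0.63 to 0.08) and that of Cd180 0.31 (-0.06 to 0.67; limma adjusted p = 0.998 for both).

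Tlr7 lies on the X chromosome, and its values are set beside the sex-linked transcripts for that reason. In FO B cells it was at 1308 and 2521 in the WT libraries, which had Xist at 25929.5 and 31049.8, and at 1197 and 1338 in the cKO libraries, which had Xist at 14748 and 67.4. In MZ B cells it was at 3565 and 4719 with Xist at 42534 and 47002 in WT, and at 3719.7 and 3285 with Xist at 89.7 and 21.7 in cKO. The Y-linked genes Kdm5d, Uty and Eif2s3y stayed at or under 10.6 in WT and reached 415 or more in every cKO library. The difference of Tlr7 between cKO and WT in FO was -0.52 (-1.17 to 0.13, limma adjusted p = 1), and it was -0.05 without WT FO replicate 2 and -0.99 without WT FO replicate 1. Without cKO FO replicate 1, the library with both Xist and Y-linked transcripts, it was -0.44. In MZ it was -0.23 (-0.88 to 0.42, limma adjusted p = 0.998). Tlr8, its neighbour in the family and also X-linked, was at 1.93 to 14.5 in all libraries, under the minimum for testing.

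**Figure D5:**
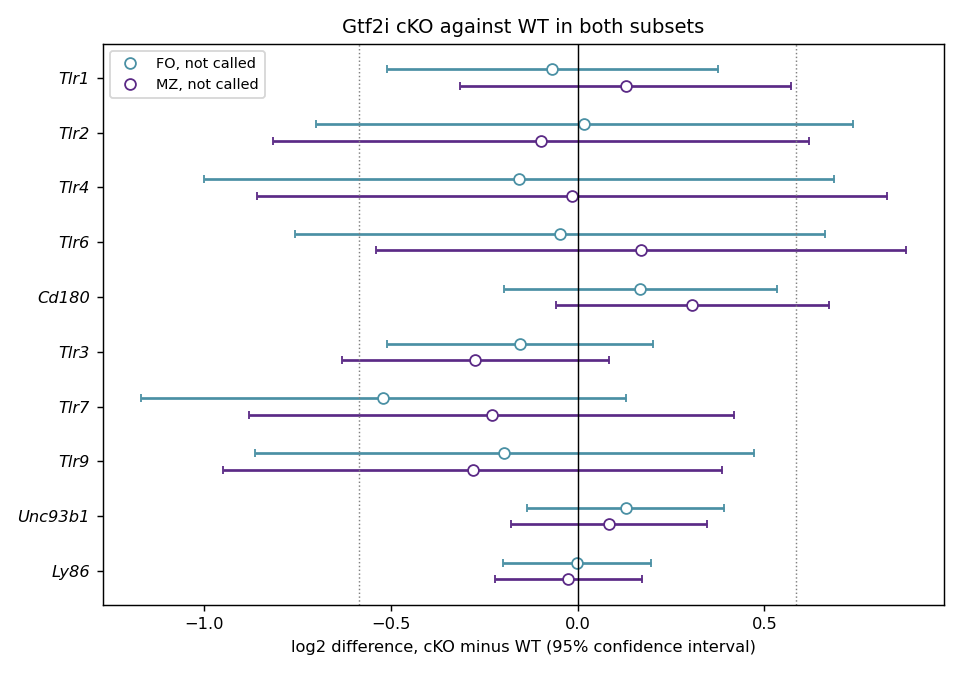
Log2 difference between cKO and WT (cKO minus WT) in FO and in MZ B cells with 95% confidence intervals from limma; open points did not pass the call and dotted lines mark 1.5-fold. All 20 intervals include 0, from the narrow ones of Ly86 (-0.20 to 0.20 in FO) to the wide ones of Tlr4 (-1.0 to 0.69 in FO).

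Whether the MZ to FO difference itself depended on genotype was tested as an interaction. By limma, DESeq2 or edgeR it was called for 0 of the 10 genes, and over all genes tested for 0.0%, with 94 of all genes (0.637%) and 0 of the 10 at an unadjusted limma p under 0.05. The interaction lay between -0.12 (Tlr3, -0.63 to 0.38) and 0.29 (Tlr7, -0.63 to 1.21) on the log2 scale (limma adjusted p = 1 for all 10). For Tlr3 this interval leaves out a change of the 9.85-fold WT difference by 1.5-fold upwards but not downwards.

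Genes that work with these receptors were taken from 6 lists, of which 45 of 50 genes were tested. In WT, 6 were called higher and 2 lower in MZ than in FO B cells, with a median of -0.08, and in cKO 5 were called higher and 3 lower, with a median of -0.08. These shares stand beside the 7.41% higher and 4.62% lower of all genes in WT and 8.18% and 5.54% in cKO. Of 9 further receptors and co-receptors 4 were tested and 2 were called. Ly96, which holds lipopolysaccharide in the Tlr4 complex, had 56.9 and 79.9 normalized counts in FO and 281 and 275 in MZ B cells of WT mice, and 57.1 and 69.5 in FO and 229 and 254 in MZ B cells of cKO mice, a log2 difference of 2.03 in WT mice (limma adjusted p = 0.0011) and 1.92 in cKO mice (limma adjusted p = 0.00121). Cd36, a scavenger receptor that hands lipids to Tlr2 complexes, had 616 and 884 in FO and 5198 and 6373 in MZ B cells of WT mice, and 647 and 623 in FO and 5116 and 4814 in MZ B cells of cKO mice, and was called in both genotypes (2.96 in each). So Ly96 was higher in MZ B cells in both genotypes while Tlr4 did not pass the test. Tlr12, a receptor for profilin, had the lowest WT difference of this list (-0.64, limma adjusted p = 0.498), which was 0.0083 without WT FO replicate 2. Tlr5, Tlr8, Tlr11, Cd14 and Lbp were under the minimum for testing, with no library above 16.8.

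Among the 6 adaptors, only Ticam1, the adaptor of Tlr3, was called. It had 711 and 837 normalized counts in FO and 1159.6 and 1518 in MZ B cells of WT mice, and 689 and 694 in FO and 993 and 988 in MZ B cells of cKO mice. All MZ libraries were above all FO libraries, and the log2 difference in WT was 0.78 (limma adjusted p = 0.00993) and 0.52 in cKO mice (limma adjusted p = 0.0414, under 1.5-fold). The WT call was lost in a fit of the 4 WT libraries (limma adjusted p = 0.069) and without WT FO replicate 1 (0.66, limma adjusted p = 0.0562). Ticam2, the adaptor that links Ticam1 to Tlr4, had the lowest WT difference of the list, -0.72 (limma adjusted p = 0.52), which was called without WT MZ replicate 2 (-1.82, limma adjusted p = 0.0454) and turned to 0.37 without WT MZ replicate 1. Myd88 had a difference of 0.18 in WT mice (limma adjusted p = 0.258) and 0.10 in cKO mice (limma adjusted p = 0.52).

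Of 12 kinases and ubiquitin ligases, Ikbke, a kinase that acts below Ticam1, was called higher in MZ in both genotypes, from 689 and 566 in WT FO to 1946 and 1823 in WT MZ B cells (1.59, limma adjusted p = 0.000189) and from 627 and 623 to 1762 and 1742 in cKO mice (1.49, limma adjusted p = 0.000206). Peli1, a ubiquitin ligase that acts on Toll-like receptor signaling, was called lower, by -0.80 in WT mice (limma adjusted p = 0.0137) and -0.88 in cKO mice (limma adjusted p = 0.0082). The Peli1 call was lost without WT FO replicate 1 (-0.63) or WT MZ replicate 1 (-0.74) in WT, and without cKO FO replicate 1 (-0.70) or cKO MZ replicate 1 (-0.78) in cKO. Over the 12 kinases and ligases, 4 differences were above 0 and 8 below in each genotype, with medians of -0.13 in WT and -0.22 in cKO. Of 10 genes for folding, traffic and processing, Ctsb and Lgmn, endosomal proteases of the kind that trim Tlr7 and Tlr9, were called higher in both genotypes. Ctsb rose from 2292 and 2441 in WT FO to 5681 and 5615 in WT MZ B cells (1.26, limma adjusted p = 0.000118), and Lgmn from 3405 and 3395 to 6326 and 6019 (0.86, limma adjusted p = 0.00318). In cKO the differences were 1.16 for Ctsb and 0.77 for Lgmn. The proteases Ctsl (-0.08 in each genotype) and Ctss (0.02 in WT and 0.06 in cKO) of the same list were not called. Tmed7, a traffic protein of Tlr4, was lowest in this list at -0.16 (limma adjusted p = 0.304).

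Of 6 transcription factors downstream, Irf7, which drives type I interferon genes below Tlr7 and Tlr9, had 1902 and 1970.3 normalized counts in FO and 1234 and 1606 in MZ B cells of WT mice, and 1569.8 and 1679 in FO and 692 and 928 in MZ B cells of cKO mice. Its difference between MZ and FO was called in cKO (-1.02, limma adjusted p = 0.00541) and not in WT (-0.46, limma adjusted p = 0.107), and the interaction did not pass the test (-0.56, limma adjusted p = 1). Between cKO and WT MZ B cells its difference of -0.81 was not called by limma (adjusted p = 0.526) but was by DESeq2 on the recovered reads (adjusted p = 0.00869). Irf5 had the highest WT difference of the list, 0.17 (limma adjusted p = 0.451). Of 7 negative regulators, Nfkbia, the inhibitor of NF-κB and itself a target of it, was called lower in MZ, from 6009 and 5511 in WT FO to 2556 and 3281 in WT MZ (-0.99, limma adjusted p = 0.00399) and from 5351 and 5100.1 to 3026 and 2422 in cKO mice (-0.95, limma adjusted p = 0.00427), and Cyld had the highest value (0.13, limma adjusted p = 0.267). Between cKO and WT, limma called 0 of the 45 in FO, in MZ, across both subsets or in the interaction, with 0, 3, 4 and 1 at an unadjusted p under 0.05. DESeq2 called 1 in MZ (Irf7) and 0 elsewhere, and edgeR 0.

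For the 3 receptors called in both genotypes, the genes with the most similar profile over the 8 libraries were listed by Pearson correlation of log2(normalized count + 1), as a description without a test. Tlr3 was most like Rap1gap (r = 0.998), Cd36 (0.998) and the MZ marker Cd9 (0.998), all of which were higher in MZ B cells. Tlr7 was most like Gm36266 (0.995), Ovca2 (0.994) and Trim30b (0.994), and Cd180 most like Pde1c (0.996), Ccdc12 (0.994) and Zbtb38 (0.992). The libraries fall into an FO and an MZ set, so many genes that separate the sets correlate highly, and 1501, 946 and 1079 genes had r above 0.9 with Tlr3, Tlr7 and Cd180. Among the 10 genes themselves the highest correlations were those of Cd180 with Unc93b1 (0.99), Tlr3 with Ly86 (0.98) and Tlr1 with Tlr6 (0.96), and the lowest was that of Tlr2 with Ly86 (0.18).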

How the data were processed

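The authors aligned the adapter-trimmed single-end reads of 50 bases from ribosomal RNA-depleted total RNA to mm10 with HISAT2, counted them on genes with featureCounts and htseq-count and normalized them with DESeq2; versions, annotation and strand setting are not given in the sources used here. The signal the authors deposited is a normalized count, that is, reads over the DESeq2 size factor; multiplying back gave whole reads (within 0.01) for 100% of values. After 256343 blank lines were left out, 27928 genes remained in 8 libraries. The 8 ATAC-seq samples were not analysed here, and the driver of Cre is not reported here.

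For the 14761 genes whose mean was at least 10, limma 3.58.1 (R 4.3.3; lmFit, then eBayes with trend) was run on log2(normalized count + 1) of all 8 libraries, with a mean for each group. This replaces the DESeq2 test of the study, since the table holds normalized counts. P-values were adjusted by Benjamini-Hochberg over all genes tested. Recovered reads were tested with DESeq2 1.42.0 and edgeR 4.0.16 (quasi-likelihood) as alternatives, and all 3 tools were first tried on simulated counts. With 200 genes changed in simulated WT MZ, limma called 74 of 100 at 4-fold, 50 of 100 at 2-fold and 8 unchanged genes. For edgeR these were 74, 50 and 9, and for DESeq2 78, 60 and 32. An exact permutation test of 2 against 2 libraries cannot pass 0.05. Intervals cover the spread between libraries; the part of depth in it was not tested. Positions and exon lengths are from GENCODE M21 (GRCm38), in which 27872 identifiers were found.

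The 10 genes and the lists were chosen with earlier results of these data known. Named genes are the 10, each listed gene called in any comparison, the genes with the highest and lowest WT difference of each list, and the 3 genes most like each receptor called in both genotypes. Myd88, Ctsl, Ctss, Mast4, Csf1r, Adgre1 and Cd3e were named after their values were seen.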

Additional observations from a re-analysis of the deposited data

How the results depend on the processing

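Tlr3 and Cd180 were called higher in MZ in both genotypes under every alternative run, with log2 differences of 3.12 to 3.48 (WT) and 3.08 to 3.28 (cKO) for Tlr3 and 0.89 to 1.12 and 0.94 to 1.34 for Cd180 when single libraries were left out; Tlr7 lost its call as given above. Tlr3, the lowest of the 10 in FO, had 105 to 156 reads in the FO libraries, and the part of depth in the spread was not tested. Without the fold cutoff 5 of the 10 genes were called in each genotype, Ly86 and Unc93b1 being added, beside 2497 of all genes tested in WT and 2889 in cKO. The other alternatives were a pseudocount of 0.5, no filter, quantile normalization, DESeq2, edgeR, a fit of the 4 libraries compared and, for levels, the longest transcript.

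Over all genes tested, the fit of the 4 libraries called 1014 in WT (1776 in the fit of all 8) and 4 between cKO and WT in FO (10), but 2339 between MZ and FO in cKO (2026) and 5 between cKO and WT in MZ (5); the cause was not tested. DESeq2 called 25 genes between cKO and WT in FO, 48 in MZ and 69 across both (10, 5 and 16 by limma); the cause was not tested. Leaving out single libraries gave 1073 to 2119 genes between MZ and FO in cKO (2026 with all, lowest without cKO MZ replicate 1), 4 to 11 between cKO and WT in FO and 8 to 17 across both subsets.

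Differences near 0 changed sign, with the cause not tested. Quantile normalization turned Tlr2 between MZ and FO in cKO to -0.0945, Ly86 between cKO and WT to 0.0029 in FO and 0.0309 in MZ, and Tlr4 in MZ to 0.0043, and in FO Ly86 was 0.0008 by DESeq2 and 0.0074 by edgeR. The ranges with single libraries left out crossed 0 between MZ and FO in WT for Tlr1 (-0.0526 to 0.45), Tlr2 (-0.21 to 0.55), Tlr4 (-0.25 to 0.74), Tlr6 (-0.0758 to 0.68), Ticam2 (-1.82 to 0.37) and Tlr12 (-1.29 to 0.0083), and in cKO for Tlr2 (-0.28 to 0.39) and Irf5 (-0.0617 to 0.17). Between cKO and WT in FO they crossed it for Tlr1 (-0.32 to 0.18), Tlr2 (-0.37 to 0.40), Tlr3 (-0.34 to 0.0296), Tlr4 (-0.65 to 0.34), Tlr6 (-0.36 to 0.26), Tlr9 (-0.54 to 0.15), Cd180 (-0.0317 to 0.37) and Ly86 (-0.0607 to 0.0562). In MZ they crossed it for Tlr1 (-0.0191 to 0.28), Tlr2 (-0.30 to 0.10), Tlr4 (-0.36 to 0.32), Tlr6 (-0.21 to 0.54), Tlr9 (-0.62 to 0.0583) and Ly86 (-0.0712 to 0.0208).

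The labels number the libraries 1 and 2 in each group and do not say whether equal numbers share a mouse or batch. Across genes, the replicate differences of FO and MZ correlated at 0.591 in WT and at -0.0015 in cKO. Between groups of different genotype they correlated between -0.296 (WT MZ with cKO MZ) and 0.294 (WT FO with cKO FO). Same-numbered WT libraries thus deviated together and cKO libraries did not. Whether the numbers pair the libraries was not settled, so the main fit left them unpaired. In cKO the libraries numbered 1 also differed in Xist, at 14748 in FO and 89.7 in MZ B cells. With the replicate number as a block, 1973 genes were called between MZ and FO in WT and 2262 in cKO, 9, 5 and 20 between cKO and WT in FO, MZ and both subsets, and 0 in the interaction. Under this block Tlr9 was called in WT (0.59, limma adjusted p = 0.0263), so that 4 of the 10 were called in WT and 3 in cKO. Exchanging the numbers of the cKO MZ libraries in the block, chosen after seeing the data, gave 2262 and 2585 genes between MZ and FO, and 16, 12 and 37 between cKO and WT in FO, MZ and both subsets.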
